A study of Ovis aries with 6 samples.

Results

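AQP1 and VEGFA, genes known for their part in blood vessels, were examined in the dorsal skin of newborn Hu lambs (Ovis aries). Their members on the array are the non-control probes whose RefSeq accession names either gene. They are 2 of the 500 genes named on the array and 4 of its 15008 probes, 2 for AQP1 (A_70_P051357 and A_70_P051356) and 2 for VEGFA (A_70_P050922 and A_70_P050921), each printed as 1 spot. The arrays hold RNA of 6 lambs aged 2 days, 3 with the large wave coat pattern and 3 with the small wave pattern, all of the Hu breed, which is valued for the wavy fleece of its lambs. By the series' design text all lambs had 1 sire, and each large wave lamb shared its dam with a small wave lamb. Each lamb gave 1 array, labelled with Cy3, and p-values measure the spread between these related lambs. No label says which lambs share a dam, and the standard errors and p-values of the wave differences do not pair them.

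AQP1 encodes aquaporin-1, a water channel in the membrane of capillary endothelium, red blood cells and several secretory epithelia. VEGFA encodes the secreted growth factor that drives endothelial cells to divide and sprout. In skin, keratinocytes of the epidermis and of the hair follicle's outer root sheath make it, and the vessel net around a follicle grows and shrinks with the hair cycle. The genes were chosen with their difference between wave patterns in these arrays already known. That difference is therefore given as a description, with no test. In whole skin, fewer cells of a type and less RNA per cell cannot be told apart.

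Levels are given as the log2 processed signal minus the array's own 75th percentile, so that 0 is the 75th percentile and each unit is a doubling. The 75th percentile itself measures array brightness. For large wave replicates 1 to 3 it stood at 391.5, 204.7 and 249.2, and for their small wave counterparts at 284.8, 152.2 and 94.7. Within each same-numbered pair the large wave array was the brighter, by 0.46, 0.43 and 1.40 on the log2 scale in pairs 1 to 3. All 4 named hair shaft keratins had a tested probe, as did the keratinocyte gene SFN, while both probes of PRD-SPRRII, another epidermal gene, were well above background on 0 arrays.

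AQP1 had a lower group mean in large wave than in small wave skin at both of its probes. At A_70_P051357, its brighter probe, the level was -3.16, -3.22 and -3.63 in large wave replicates 1 to 3. In small wave replicates 1 to 3 it was -2.45, -1.12 and 0.43. The 3 large wave lambs lay close together and below every small wave lamb, and the small wave lambs were spread over 2.88 units. The group means were -3.34 ± 0.26 and -1.04 ± 1.44 (SD, n = 3 each). The difference, large wave minus small wave, was -2.29 ± 0.70 (SE), a 4.90-fold higher level in small wave skin. Without small wave replicate 3, the lamb with the highest AQP1, the difference was -1.55.

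The other AQP1 probe, A_70_P051356, read -3.37, -3.86 and -2.43 in large wave replicates 1 to 3. It read -2.78, -1.61 and -0.40 in small wave replicates 1 to 3. Here the groups overlapped, since large wave replicate 3 was above small wave replicate 1. The group means were -3.22 ± 0.72 and -1.60 ± 1.19 (SD, n = 3 each), a difference of -1.62 ± 0.68 (SE), and -1.02 without small wave replicate 3. Both AQP1 probes put small wave replicate 3 first and small wave replicate 2 second. They disagreed on large wave replicate 3, which was the lowest array at A_70_P051357 and the third highest at A_70_P051356.

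VEGFA had lower group means in large wave skin at both probes, with overlapping groups. At A_70_P050922, its brighter probe, the level was -3.90, -3.32 and -3.13 in large wave replicates 1 to 3. The small wave replicates 1 to 3 had -3.59, -2.04 and -1.13. Small wave replicate 1 lay among the large wave lambs, and small wave replicates 2 and 3 lay above all of them. The means were -3.45 ± 0.40 and -2.25 ± 1.25 (SD, n = 3 each), with a difference of -1.20 ± 0.65 (SE) and -0.64 without small wave replicate 3.

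The other VEGFA probe, A_70_P050921, read -4.09, -2.49 and -3.94 in large wave replicates 1 to 3. Its levels were -3.54, -1.19 and -3.09 in small wave replicates 1 to 3. The highest lambs at this probe were small wave replicate 2 and large wave replicate 2, a same-numbered pair, and small wave replicate 3 came after them. The means were -3.51 ± 0.89 and -2.61 ± 1.25 (SD, n = 3 each), and the difference was -0.90 ± 0.73 (SE). Without small wave replicate 2 it was -0.19, and it was -1.36 when small wave replicate 1 was omitted and -1.41 when large wave replicate 2 was. At A_70_P050922 leaving out small wave replicate 1 gave -1.87. The VEGFA probes thus each lost most or much of their difference without 1 small wave lamb, but not the same lamb.

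**Figure D1:**
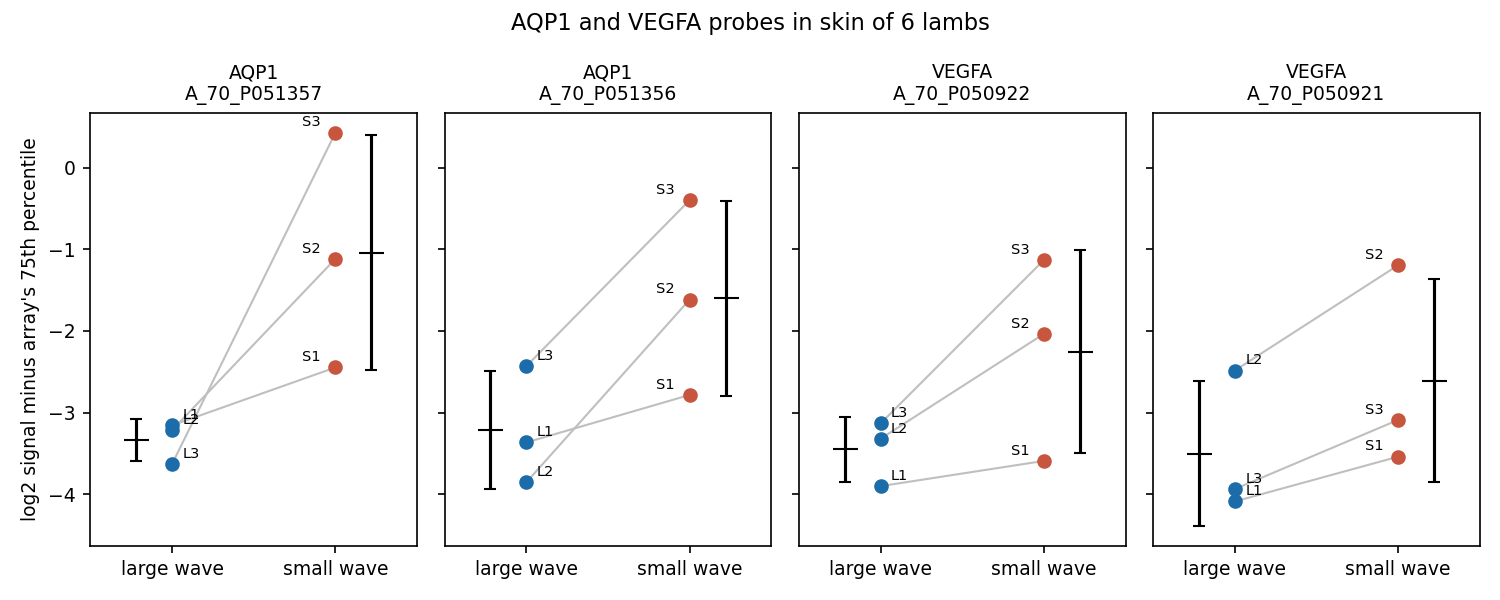
Level of each AQP1 and VEGFA probe (log2 signal minus the array's 75th percentile) in large wave lambs (blue, L1 to L3) and small wave lambs (red, S1 to S3); grey lines join same-numbered lambs, and black bars give the group mean and SD (n = 3). The groups are separate only at AQP1 A_70_P051357, where L1 to L3 lie between -3.63 and -3.16 and the lowest small wave lamb is at -2.45.

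Of the 4 probes, 1 had groups that did not overlap, with the large wave lambs lower. Over all 10047 probes tested that pattern held for 6.18%, and groups were apart in either direction for 11.2%. Among the 9220 probes measured on all 6 arrays, 4.89% had it. Nothing is read from the members' count, since they were chosen on this contrast. In limma's fit, 0 of the 10047 probes (0%) had an adjusted p under 0.05, and 384 had an unadjusted p under 0.05. The median difference over all probes was -0.02, and 51.3% of probes were lower in large wave skin, against 10.4% with no scaling between arrays. A difference of -0.90 or below, the value of the weakest member probe, was found in 7.04% of the probes.

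Within same-numbered lambs, large wave minus small wave was below 0 in 12 of 12 comparisons, 3 pairs at each of 4 probes, which share their lambs and come from 2 genes. Of the 9220 probes measured on all 6 arrays, 18.3% had all 3 pairs below 0, and the members were chosen on this contrast, so nothing is read from the count. At AQP1 A_70_P051357 the differences were -0.71, -2.10 and -4.06 in pairs 1 to 3, and at A_70_P051356 they were -0.58, -2.24 and -2.04. At VEGFA A_70_P050922 they were -0.31, -1.29 and -2.00, and at A_70_P050921 -0.55, -1.29 and -0.85. Pair 1 gave the smallest difference at each probe. Its lambs had the arrays with the highest 75th percentiles.

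The arrays lay in 2 rows of 1 slide, and the rows gave different pictures of VEGFA. Row 1 held small wave replicate 1, the brightest of its 3 arrays, with large wave replicates 2 and 3. There VEGFA was higher in large wave skin, by 0.37 at A_70_P050922 and 0.33 at A_70_P050921, and AQP1 was lower by -0.98 and -0.36 at A_70_P051357 and A_70_P051356. Row 2 held large wave replicate 1, the brightest array of all, and small wave replicates 2 and 3, the dimmest. There the VEGFA differences were -2.32 and -1.95 and the AQP1 differences -2.82 and -2.36, in the same probe order. With 1 array of a group in each row, these values have no error of their own. Taken with the row as a block, the differences were -1.90 and -1.36 for AQP1 and -0.98 and -0.81 for VEGFA.

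The levels of all 4 probes tended to be lower on brighter arrays, and VEGFA A_70_P050922 followed brightness most closely. Part of this follows from the choice of genes, since both were chosen for lower values in large wave skin and each large wave array was the brighter of its pair, so these relations are given with no test. Over 6 arrays, VEGFA A_70_P050922 and the log2 75th percentile had r = -0.966 and rho = -0.943. Without large wave replicate 1 and small wave replicate 3, the arrays farthest from the median brightness, r was -0.902. For AQP1 A_70_P051357 r was -0.856 and rho -0.543, and r was -0.655 without the same arrays. The scaling subtracts the 75th percentile from each level, so brightness enters both sides of these relations.

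Other probes, which were not chosen for their values, are given beside the members for scale. Of 9216 other probes measured on all 6 arrays, 2.01% followed brightness at least as negatively as VEGFA A_70_P050922, and 12.1% as negatively as AQP1 A_70_P051357, while the median r was 0.03. Sorted by signal into 10 classes of 922 probes, the VEGFA probes lay in class 3 and the AQP1 probes in class 4, counted from the dimmest. The median r with brightness was 0.31 and 0.26 in those classes, and here too the choice of members sets part of the contrast. With the group means removed from levels and brightness alike, r was -0.949 at VEGFA A_70_P050922 and -0.416 at A_70_P050921, and -0.807 and -0.697 at AQP1 A_70_P051357 and A_70_P051356. Among the other probes 4.0%, 34.2%, 16.4% and 22.9% were at or below these values in the same order, around a median of 0.06. Before any scaling between arrays, r with brightness was -0.740 for VEGFA A_70_P050922 and -0.606 for AQP1 A_70_P051357. For the other probes the unscaled r was -0.37 at AQP1 A_70_P051356 and 0.12 at VEGFA A_70_P050921.

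**Figure D2:**
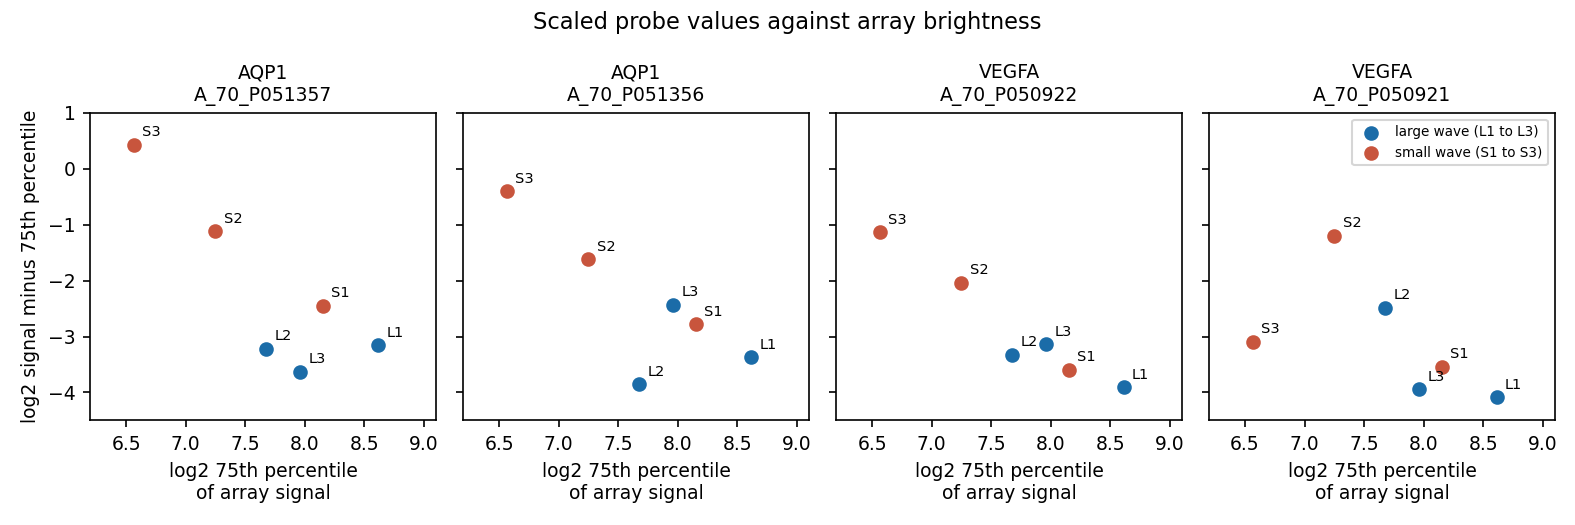
Level of each member probe against the log2 75th percentile of the array's signal in large wave lambs (blue, L1 to L3) and small wave lambs (red, S1 to S3). The dimmest array, S3, has the highest level at 3 of the 4 probes, and VEGFA A_70_P050922 follows brightness most closely (r = -0.966).

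With array brightness as a covariate, the wave difference became -1.32 ± 0.60 (SE) at AQP1 A_70_P051357 and -0.82 ± 0.67 at A_70_P051356. For VEGFA it became -0.18 ± 0.44 at A_70_P050922 and -0.38 ± 0.88 at A_70_P050921. Arrays of like brightness can also be set side by side. Small wave replicate 1, at 284.8, lay between large wave replicates 3 and 1, at 249.2 and 391.5. At AQP1 A_70_P051357 it was above both, with -2.45 against -3.63 and -3.16, whereas at AQP1 A_70_P051356 and at VEGFA A_70_P050922 it lay between them, with -2.78 and -3.59. At VEGFA A_70_P050921 it was above both, with -3.54 against -3.94 and -4.09. The part of brightness in the wave differences was not tested further.

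The spots of both genes were dim. The processed signal of AQP1 A_70_P051357 was 43.9, 22.0 and 20.1 for large wave replicates 1 to 3, against 52.2, 70.3 and 127.7 for small wave replicates 1 to 3. That of VEGFA A_70_P050922 was 26.2, 20.5 and 28.4 in large wave and 23.6, 37.1 and 43.3 in small wave replicates. Each of the 4 probes was marked well above background on all 6 arrays and carried no outlier mark, and none was saturated. The error that Feature Extraction attached to a member spot was between 10.1 and 17.9% of its signal. Without scaling, VEGFA A_70_P050922 thus spanned only 2.11-fold over the 6 lambs, and 6.83-fold after scaling. For AQP1 A_70_P051357 the span was 6.35-fold without and 16.7-fold with scaling.

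The scanner software's processed signal differed from its background-subtracted signal by a factor that varied from spot to spot. The headers list the fit statistics of a multiplicative detrending, and the factor is taken here to be that last correction. On small wave replicate 3, where this correction was widest, the ratio was 1.66 at VEGFA A_70_P050922 and 0.679 at VEGFA A_70_P050921. The background-subtracted signals there were 26.1 and 16.4, and became 43.3 and 11.1. Over the 7823 spots of that array that were well above background, the 5th and 95th percentiles of the ratio were 0.657 and 1.69, and on large wave replicate 1, where it was narrowest, 0.895 and 1.18.

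Before that correction, the background-subtracted signal of VEGFA A_70_P050922 was 26.3, 22.3 and 32.4 in large wave replicates 1 to 3. In small wave replicates 1 to 3 it was 27.8, 39.4 and 26.1. On this scale, with no division by array brightness, small wave replicate 3 was no longer the highest lamb but lay within the large wave range. Scaled to each array's 75th percentile it was still the highest, at -1.78 against -1.93 in small wave replicate 2. AQP1 A_70_P051357 kept its top lamb: it had 38.5, 14.9 and 16.8 in large wave and 44.0, 42.3 and 162.8 in small wave replicates 1 to 3. Its signal on small wave replicate 2 had been raised 1.66-fold by the correction and that on small wave replicate 3 lowered, at a ratio of 0.784. With these signals scaled to their own 75th percentile, the wave differences were -2.44 and -1.42 for AQP1 A_70_P051357 and A_70_P051356, and -0.98 and -1.28 for VEGFA A_70_P050922 and A_70_P050921.

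**Figure D3:**
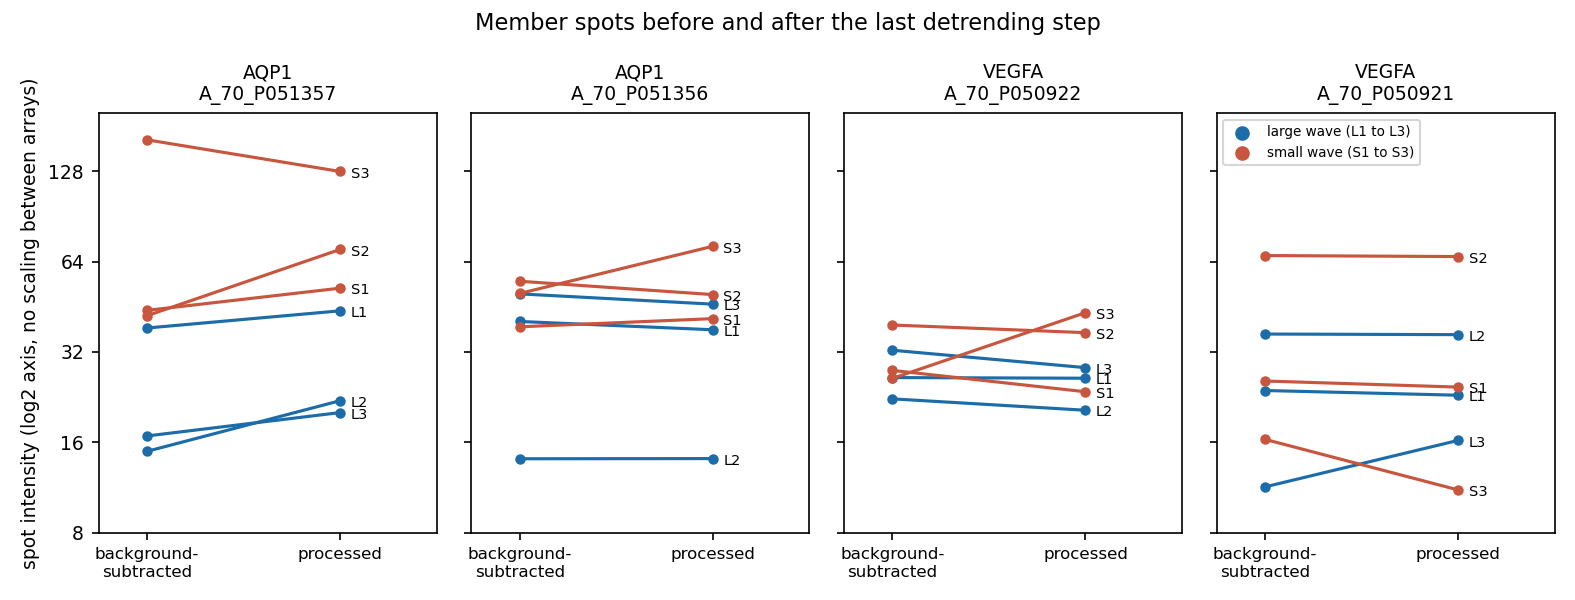
Spot intensity of each member probe before (background-subtracted) and after (processed) the scanner software's last correction, on a log2 axis and with no scaling between arrays, for large wave (blue) and small wave (red) lambs. On S3 the correction moved VEGFA A_70_P050922 from 26.1 to 43.3 and VEGFA A_70_P050921 from 16.4 to 11.1.

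Whether AQP1 and VEGFA varied together between lambs depended on the VEGFA probe and on 2 lambs. Between the brighter probes, A_70_P051357 and A_70_P050922, Pearson's r over 6 lambs was 0.909 (exact permutation p = 0.025, two-sided, adjusted p = 0.0278) and Spearman's rho 0.486 (exact permutation p = 0.356, adjusted p = 0.356), adjusted over 3 relations with those of each gene to brightness. Both genes had been chosen with lower values in large wave skin, so part of this r follows from the choice. The permutation moves lambs across wave groups, so its p-values, and whether a setting passes, follow in part from the choice too. The same holds for the brightness relations that enter the adjustment. These p-values are therefore not read as covariation apart from the wave difference. Without small wave replicates 3 and 2, the lambs farthest from the median of AQP1, r was -0.511, so the relation rests on those lambs, which are also the dimmest arrays. With a single lamb left out, r was 0.914 and 0.941 without large wave replicate 1 and small wave replicate 1, and 0.896 and 0.735 without small wave replicates 2 and 3, and it no longer passed the exact permutation threshold. Without large wave replicate 2 or 3 r was 0.907 and 0.961 and still passed. With the wave difference removed, the lambs' deviations from their group means had r = 0.878, and exact permutation within groups gave p = 0.306, two-sided, where 36 orders allow 0.0278 at the smallest.

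Against the second VEGFA probe, A_70_P050921, r was 0.440 for AQP1 A_70_P051357 (exact permutation p = 0.4) and 0.262 for AQP1 A_70_P051356 (exact permutation p = 0.611). Against A_70_P050922, AQP1 A_70_P051356 had r = 0.920 (exact permutation p = 0.0125) and rho = 0.829. These p-values, too, follow in part from the choice of genes and are not read as covariation apart from the wave difference. For deviations from group means r was 0.867 (exact permutation within groups, p = 0.139). The r of the levels was 0.297 without small wave replicates 2 and 3. The VEGFA probes had r = 0.504 with each other and the AQP1 probes r = 0.888. Over 118 probe pairs of 104 named genes the median r between probes of a gene was 0.631, with quartiles at 0.211 and 0.883. Over the 6 lambs the AQP1 probes thus followed each other more closely than most such pairs, and the VEGFA probes somewhat less closely than the median pair. Without small wave replicates 2 and 3 the r was -0.050 between the AQP1 probes and 0.362 between the VEGFA probes. The r between the AQP1 probes was 0.642 given brightness. The members were chosen on a wave difference that their probes share, so nothing is read from their place among other pairs. Given brightness, the r between A_70_P051357 and A_70_P050922 was 0.611, that between A_70_P051356 and A_70_P050922 0.902, and that between the VEGFA probes -0.195. With no scaling between arrays these were 0.775, 0.839 and -0.219. Behind the 0.902 given brightness, large wave replicate 2 stood apart, at -1.48 for AQP1 and -0.51 for VEGFA from the brightness fit. The other arrays lay between 0.15 and 0.41 for AQP1 and between -0.10 and 0.24 for VEGFA. On large wave replicate 2 the median intensity of that AQP1 spot was 1.33 times its background.

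**Figure D4:**
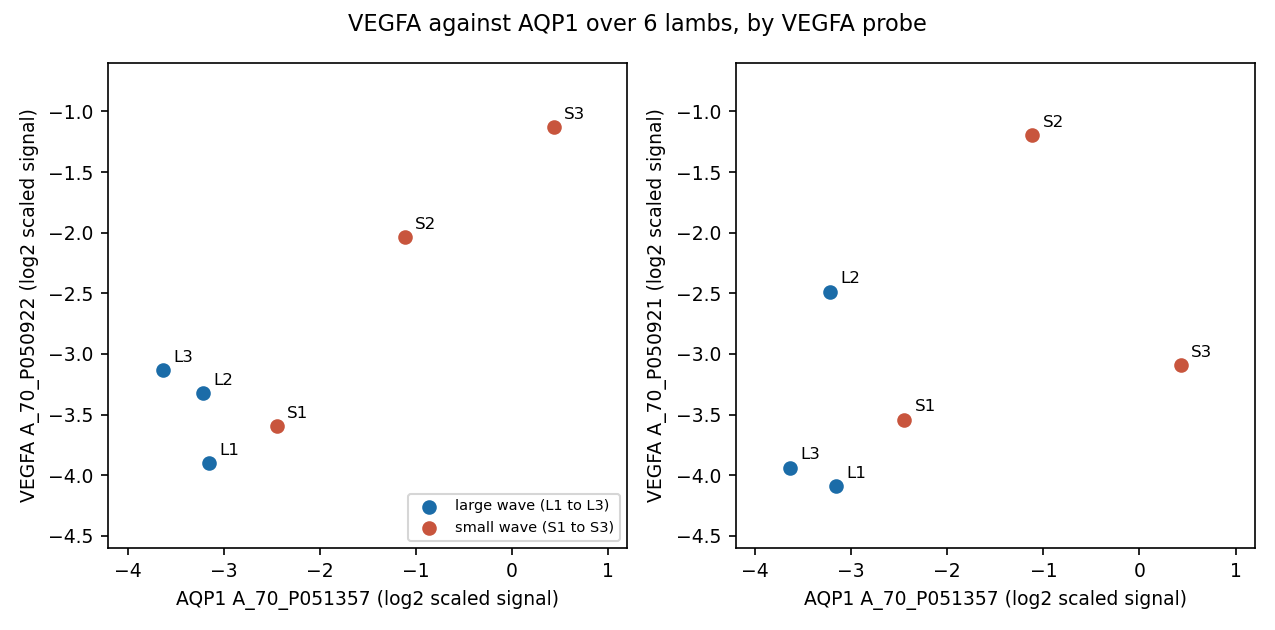
Level of VEGFA (left A_70_P050922, right A_70_P050921) against AQP1 A_70_P051357 in 6 lambs, log2 scaled signal, large wave in blue (L1 to L3) and small wave in red (S1 to S3). On the left S2 and S3 set the upward relation (r = 0.909, and -0.511 without them), and on the right S3 falls away from it (r = 0.440).

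Many other probes followed AQP1 as closely as VEGFA did. Of the 9216 other probes, 332, or 3.60%, had an r with AQP1 A_70_P051357 of at least the 0.909 of VEGFA. Among 312 other named genes measured on every array, each at its brightest probe, VEGFA ranked 12th in likeness to AQP1, and AQP1 ranked 17th in likeness to VEGFA. The 5 genes most like AQP1 over the 6 arrays were the ubiquitin gene UBB (r = 0.979), the NF-kappaB inhibitor gene NFKBIA (0.979), the endothelin gene EDN1 (0.974), the protein kinase A subunit gene PRKACA (0.966) and ANXA2, a membrane-binding annexin (0.949). The 5 most like VEGFA were the calpain gene CAPN2 (r = 0.964), the secretoglobin gene SCGB3A2 (0.962), FCGRT, which encodes the neonatal Fc receptor (0.961), HSD11B2, a cortisol-inactivating enzyme (0.961), and the transcription factor CREM (0.955). The r of these 10 genes with brightness lay between -0.994 and -0.788, so each of them, too, was higher on dimmer arrays.

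Endothelin-1 is a peptide by which endothelial cells constrict vessels. Of the tested genes in the angiogenic ligand and endothelial lists, its gene EDN1 was most like AQP1. Which cells of the skin gave its signal was not tested. EDN1 had -2.23, -2.64 and -2.92 in large wave lambs 1 to 3, against -2.51, -1.22 and -0.19 in small wave replicates 1 to 3. Small wave replicates 2 and 3 were again the highest lambs, while small wave replicate 1 lay among the large wave lambs. Its difference was -1.29 ± 0.60 (SE, adjusted p = 0.777 in limma over all probes) and -0.58 with brightness as a covariate. The other measured angiogenic ligand was FGF2, a fibroblast growth factor that also acts on endothelium, with -0.54 ± 0.60 (adjusted p = 0.804), and 0.49 with brightness as a covariate. PDGFB was well above background on 0 arrays. Of the 15 listed ligands, 3 had a named probe, 2 were tested and 0 passed in either direction.

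The other endothelial markers that could be tested had higher means in large wave skin, the opposite sign to AQP1. Each of these differences was smaller than its SE. Of 24 listed genes, 5 had a named probe and 3 were tested, of which 2 were higher and 1 was lower in large wave lambs, with 0 passing. E-selectin (SELE), an adhesion molecule of activated endothelium, differed by 0.39 ± 0.73 (SE, adjusted p = 0.888 in limma) with r = -0.332 to AQP1. ICAM1, another adhesion molecule, differed by 0.24 ± 0.79 (SE, adjusted p = 0.945 in limma), or -0.76 with brightness as a covariate, with r = -0.335 to AQP1. Both were dim, well above background on 4 and 3 of 6 arrays, and the second SELE probe was so on 0 arrays. SELP was well above background on 2 arrays at each of its probes and CAV1 on 0, so neither was tested. The summed level of the 3 tested genes ranged from -2.17 to -1.63 in large wave and from -1.75 to -0.09 in small wave lambs. EDN1 was the highest of the 3 on every array, so it weighs most in this sum. The median difference of the 3 was 0.24, beside -0.02 over all probes. With brightness as a covariate, 2 of the 3 were lower in large wave skin and the median was -0.58. Of 5 listed VEGF receptor and co-receptor genes, 0 matched a probe by name, so they were not analysed here.

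Red blood cells also carry aquaporin-1, and their haemoglobin gene HBB had another order of lambs. HBB had 2.09, 2.57 and 1.06 in large wave lambs 1 to 3, against 0.50, 2.57 and 1.82 in small wave replicates 1 to 3, with overlapping groups. Its r with AQP1 A_70_P051357 was 0.183 and its difference 0.28 ± 0.59 (SE, adjusted p = 0.907), opposite in sign to that of AQP1. Of the 20 listed red blood cell genes, 2 had a named probe; the carbonic anhydrase gene CA1 was well above background on 0 arrays. No part of blood content in the AQP1 difference was tested beyond these values.

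VEGFA is a textbook target of the hypoxia response, of which few genes could be read. Of 23 listed genes, 4 had a named probe, 2 were tested, both lower in large wave skin, and 0 passed. The glucose transporter gene SLC2A3 differed by -0.35 ± 0.54, and by 0.52 with brightness as a covariate, and its r with VEGFA A_70_P050922 was 0.815 and with brightness -0.874. The glycolytic enzyme gene GAPDH differed by -0.20 ± 0.36 with no value on small wave replicate 3, whose spot was marked as an outlier. EPO was well above background on at most 1 array at its probes and was not tested. Of the other aquaporins, AQP4 was well above background on 0 arrays and AQP5, the water channel of sweat glands, on 2 and 1 arrays at its probes, so AQP1 was the aquaporin tested.

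Of markers of other cells, the contractile protein gene CNN1 of smooth muscle had a value in 2 lambs of the large wave group and 1 of the small wave group, with a difference of -0.42. The keratinocyte gene SFN, with a value on 4 arrays, differed by -1.12 ± 0.45 (SE, adjusted p = 0.777 in limma), or -0.81 with brightness as a covariate. Of the 2 skeletal muscle genes tested, TNNC2 differed by -1.35 ± 0.43 (SE, adjusted p = 0.777 in limma), with r = 0.928 to AQP1, and MYL11 by 0.74 ± 0.37 (SE, adjusted p = 0.777 in limma), with r = -0.743. The second TNNC2 probe differed by -0.54 ± 0.58 (SE, adjusted p = 0.803 in limma), with r = 0.065 to AQP1. All 4 adipocyte genes tested had lower means in large wave lambs at their brightest probe, beside 51.3% of all probes, with a median of -0.44, and -0.22 with brightness as a covariate. The second probes of PLIN1 and DGAT1 went the other way, at 0.04 and 0.20. The summed level of the 4 adipocyte genes ranged from 1.97 to 2.18 in large wave and from 2.21 to 3.02 in small wave lambs, with 0 of 4 passing. Among all probes tested, 11.2% had groups apart in either direction, so nothing is read from this. PPARG, the brightest of the 4, had overlapping groups, with 1.83 in large wave replicate 3 and 1.68 in small wave replicate 2. The r of these 4 genes with array brightness lay between -0.86 and -0.59. Of the fibroblast genes, DCN differed by 0.10 and 0.22 at its probes and TIMP1 by -0.75 and -0.01, the first TIMP1 probe having r = 0.885 with AQP1 and -0.957 with brightness. The 4 immune genes tested, with 1 higher and 3 lower, had a median of -0.27. The part of these cells in the differences of AQP1 and VEGFA was not tested.

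**Figure D5:**
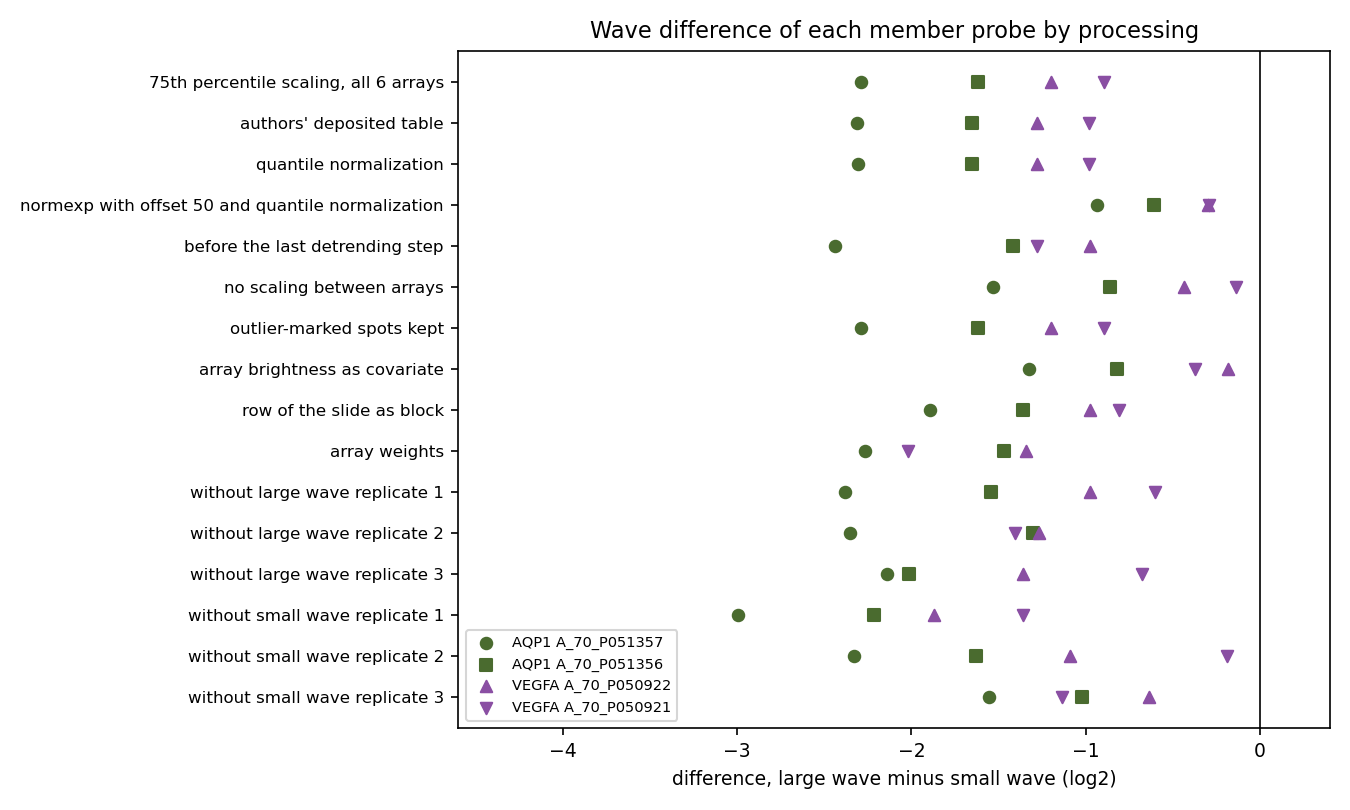
Difference, large wave minus small wave (log2), of each member probe (green for AQP1, purple for VEGFA) under the processing settings named on the vertical axis. Every point lies below 0, from -2.99 (AQP1 A_70_P051357 without small wave replicate 1) to -0.14 (VEGFA A_70_P050921 with no scaling between arrays). The genes were chosen on this contrast, so nothing is read from the shared sign.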

How the data were processed

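Per the file headers, the scanner files hold spot intensity written by Agilent Feature Extraction 10.7.3.1 (10.7 per the submitters' processing notes), with background subtracted and no scaling between arrays. The headers list fit statistics of a multiplicative detrending, which is taken to be the step between the background-subtracted and the processed signal. A processed table deposited by the authors is on a log2 scale, each column with a median of 4.95. The labels do not state how it was normalized. Its columns had r between 0.999992 and 0.999999 with the quantile-normalized processed signal, so it is nearly the same as that setting. Here, log2 processed signal minus each array's 75th percentile was used; spots marked as outliers were left out, and probes well above background on at least 3 of 6 arrays were kept (10048, of which 10047 had values in both groups). The fit was limma 3.58.1 in R 4.3.3 (lmFit, eBayes with a variance trend; Benjamini-Hochberg, threshold 0.05), checked on simulated data. Gene names came from RefSeq accessions matched to the reference table (ARS-UI_Ramb_v3.0): 767 probes, 500 genes. Members and gene lists were chosen with earlier results of these data known. Named beside the members were, by rule, the 5 genes most alike by Pearson's r and the listed vessel, hypoxia, aquaporin and blood genes. A gene was represented by its brightest kept probe. No label says that a replicate number marks a dam, so the fit reported did not pair the lambs. The number was used as a block only in an alternative fit. Same-numbered lambs' deviations correlated at 0.30, 0.18 and 0.20, though these lambs also share a slide column. The number of arrays limits the precision. Sequences and coordinates were not used here.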

Additional observations from a re-analysis of the deposited data

How the results depend on the processing

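All 4 member probes had lower group means in large wave skin under each of 16 alternatives. The genes were chosen on this contrast and the alternatives reprocess the same arrays, so nothing is read from the shared sign. Member spots carried no outlier mark, so keeping marked spots left their differences unchanged. The settings with no scaling between arrays and with the signal before the last correction were chosen after seeing the data. Values that moved by over 1 SD between replicates were those of AQP1 after normexp correction with quantile normalization (-0.94 at A_70_P051357, -0.61 at A_70_P051356), of VEGFA A_70_P050922 with brightness as a covariate (-0.18) and of VEGFA A_70_P050921 with array weights (-2.02). The offset of 50 added by normexp shrinks differences between dim spots. With no scaling the differences were -1.53, -0.86, -0.44 and -0.14 (A_70_P051357, A_70_P051356, A_70_P050922, A_70_P050921), beside a median of 0.74 over all probes, of which 10.4% were then lower in large wave skin. Leaving out 1 array gave -2.99 to -1.55, -2.21 to -1.02, -1.87 to -0.64 and -1.41 to -0.19 in the same order. With the replicate number as a block the 4 differences were the same, at -2.29, -1.62, -1.20 and -0.90, and 0 probes passed. Their SEs were then 0.67, 0.47, 0.47 and 0.40, against 0.70, 0.68, 0.65 and 0.73 in the fit reported. No alternative fit brought any probe past an adjusted p of 0.05 in limma (0 probes), with 384 at an unadjusted p under 0.05 in the fit reported, 577 with the replicate block, 142 with the slide row as a block, 2173 with array weights and 1764 without small wave replicate 1.

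The r between AQP1 and VEGFA at their brighter probes was 0.916 in the authors' table and 0.917 with quantile normalization, which nearly repeats that table. Whether a setting passes follows in part from the choice of genes. The r did not pass the exact permutation threshold after normexp correction (0.571), before the last correction (0.768) or with no scaling (0.775). Nor did it with VEGFA A_70_P050921 (0.440, or 0.262 with AQP1 A_70_P051356). Given brightness it was 0.611, and leaving out 1 array gave 0.735 to 0.961. Given the replicate block it was 0.995, but that value compares only the differences within same-numbered pairs. These were all below 0 for both genes, which were chosen on this contrast, so nothing is read from it. The r of deviations from group means ranged from 0.549 to 0.958 with 1 array left out, was 0.603 given brightness, and turned to -0.094 between A_70_P051356 and A_70_P050921. The causes of these changes were not tested.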
